A study of Mus musculus with 20 samples.

Results

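The 9 genes described here encode the surface proteins with which a CD4 T cell catches and holds on to vessel walls, matrix and other cells: the selectin ligand PSGL-1 (Selplg), the hyaluronan receptor CD44 (Cd44), the integrin beta subunits Itgb7, Itgb1 and Itgb2, and the integrin alpha subunits Itga4, Itgal, Itgae and Itgav. They were taken by symbol from the 22878 gene symbols of the RNA tables, 1 transcript row per symbol, and all 9 had reads in all 12 RNA libraries and passed the filter on low counts in both fits. Selectin ligands let a flowing lymphocyte roll, and integrins, which work as pairs of 1 alpha and 1 beta chain, then arrest it and hold it in tissue. Alpha4 pairs with beta1 (VLA-4, which binds VCAM-1 and fibronectin) or with beta7 (the gut-homing receptor for MAdCAM-1), alphaL pairs with beta2 (LFA-1, which binds ICAM-1), and alphaE pairs with beta7 (CD103, which binds E-cadherin of epithelium). AlphaV pairs with several beta chains and binds matrix proteins and latent TGF-beta, and beta1 and beta2 also serve other alpha chains.

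Polyadenylated RNA of sorted mouse CD4 T cells was sequenced in 6 groups of 2 libraries. The spleen groups came from naive T-bet-ZsGreen-T2A-CreERT2 (ZTCE) mice that also carried Rosa26-loxP-STOP-loxP-tdTomato, on the C57BL/6 background. The cells were CD4+, CD44high, CD25- and tdTomato+, which marks T-bet expression at some time, and were T-bet-ZsGreen+ (T-bet expressed at sorting) or T-bet-ZsGreen-. The lymph node groups came from a second line, T-bet-Cre mice with Rosa26-loxP-STOP-loxP-tdTomato on the same background, on day 16 after immunization with AS15 peptide in CFA. Cells that bound the AS15 tetramer were sorted as follicular helper T cells (Tfh, CXCR5high and PD1high) or as non-Tfh cells (CXCR5low and PD1low), and each as Tomato+ or Tomato-. In both lines the recombinase depends on the T-bet gene, and CreERT2 also needs tamoxifen (no schedule for it was found in the labels), so Tomato records that a cell or its forebear expressed T-bet and not that it still does. Spleen and lymph node differ in mouse line, immunization and gate and were never tested against each other. The labels do not state whether the 2 libraries of a group came from different animals, so the p-values measure the spread between these libraries, which may be technical.

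Read totals over genes ran from 13169783 to 24174592. Each spleen library covered 15080 to 15326 genes and each lymph node library 11154 to 11805, and replicates differed far more in the lymph node (biological coefficient of variation 0.908, against 0.0867 in the spleen). Tbx21, which encodes T-bet, had 193 and 214 RPKM (reads per kilobase of transcript, scaled to library size) in ZsGreen+ spleen cells, against 46.4 and 45.3 RPKM in ZsGreen- cells, and 53.0 to 183 RPKM in the Tomato+ libraries, against 10.4 to 12.9 RPKM in the Tomato- ones. The 13 CD4 T cell markers summed to 3163 to 5368 RPKM with none at 0. Markers of other cell types were also present, and several lists are given beside the results they move with. In bulk RNA, fewer cells of a type and less RNA per cell cannot be told apart.

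As single-gene context, the stretch upstream of the transcription start is shown for Itgb7 and Itga4. Itgb7 was called lower in the spleen comparison and in Tfh against non-Tfh cells. Itga4, the alpha chain it pairs with, was called lower in the spleen comparison only and was added after its matches were seen. RefSeq promoter windows (build GRCm38.p6) were at hand for 5 of the 9 genes: Cd44, Itgb7, Itgb1, Itga4 and Itgav. The 250 bases before the start were searched on both strands for the T-box half-site TCACAC (reverse complement GTGTGA) and the Runx site TGTGGT (reverse complement ACCACA), with overlapping matches allowed; matches are in capitals.
Itgb7, chr15:102231936-102232185, minus strand: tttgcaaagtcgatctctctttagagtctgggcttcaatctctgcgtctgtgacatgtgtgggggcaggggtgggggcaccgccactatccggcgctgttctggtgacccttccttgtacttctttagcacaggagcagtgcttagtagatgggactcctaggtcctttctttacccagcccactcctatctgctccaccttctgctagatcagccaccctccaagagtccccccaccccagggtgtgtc
Itga4, chr2:79255176-79255425, plus strand: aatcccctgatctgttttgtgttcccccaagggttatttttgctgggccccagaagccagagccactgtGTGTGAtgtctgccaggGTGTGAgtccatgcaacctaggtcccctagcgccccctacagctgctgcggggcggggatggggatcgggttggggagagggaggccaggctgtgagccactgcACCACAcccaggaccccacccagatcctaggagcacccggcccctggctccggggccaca
The Itga4 window held 2 T-box half-sites and 1 Runx site, and the other 4 windows held neither. Over all 32851 windows of that length 12.3% held the half-site and 14.1% the Runx site, and a match of 6 letters is not evidence of binding.

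The 9 genes fell into 3 ranges of level, as the plot of all 9 genes by library shows. Selplg, Itgb7, Itgb1, Itgb2 and Itgal had group means of 75.4 to 566 RPKM, Cd44 stood at 49.6 to 59.8 RPKM, and Itga4, Itgae and Itgav at 0.381 to 25.1 RPKM. The ratio of the highest to the lowest group mean was 41.6 for Itgae, 11.4 for Itga4, 6.49 for Selplg, 3.40 for Itgb7 and 3.05 for Itgb1. It was 2.19 for Itgb2, 1.98 for Itgal, 1.73 for Itgav and 1.21 for Cd44.

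**Figure D1:**
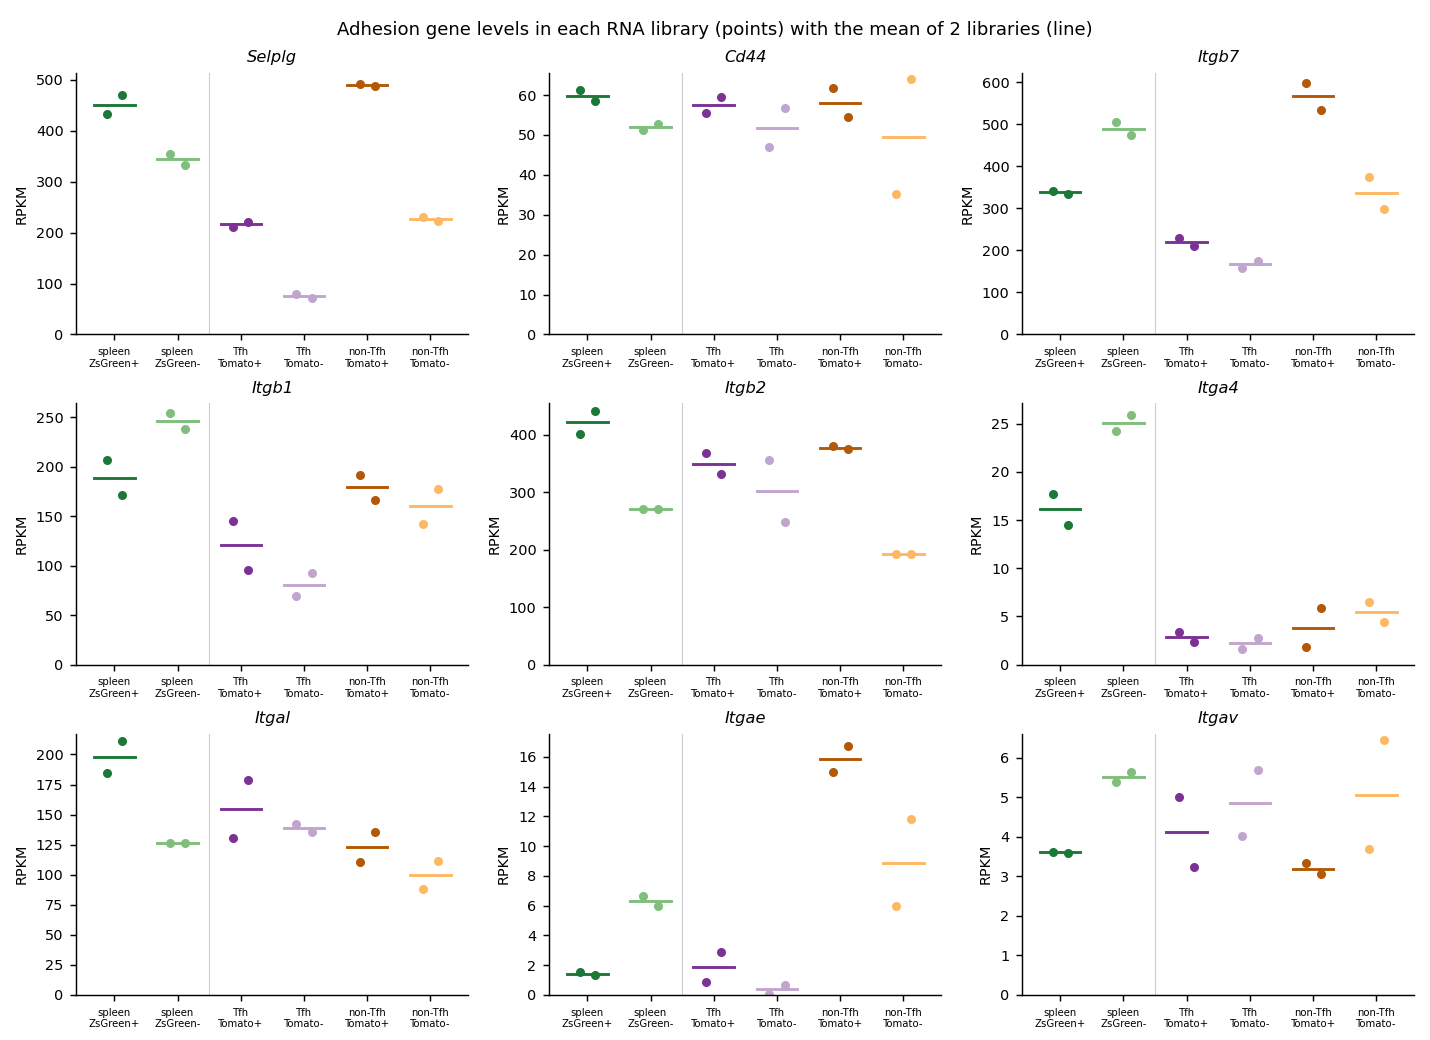
Level of each of the 9 genes (RPKM, linear axis from 0) in each of the 12 RNA libraries, with points for libraries and a line for the mean of 2. Selplg separates every neighbouring pair of groups in its order of means, Itga4 is highest in both spleen groups, Itgae is highest in both non-Tfh groups, and Cd44 stays between 35.1 and 64.0 RPKM in all libraries.

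Selplg was higher with the T-bet reporter in all 3 settings measured. Its product carries the sugars that P-selectin and E-selectin bind. In the spleen it had 432 and 471 RPKM in ZsGreen+ cells, against 355 and 332 RPKM in ZsGreen- cells. In Tfh cells it had 212 and 220.5 RPKM in Tomato+ libraries, against 79.4 and 71.4 RPKM in Tomato- libraries, and in non-Tfh cells 492 and 487 RPKM in Tomato+ libraries, against 230.3 and 223 RPKM in Tomato- libraries. Both libraries of the ZsGreen+ or Tomato+ group lay above both of its counterpart in all 3 settings. The spleen groups, both tdTomato+, differ in T-bet at sorting, and the lymph node groups in the Tomato mark. The order of the 6 group means, from non-Tfh Tomato+ through ZsGreen+, ZsGreen-, non-Tfh Tomato- and Tfh Tomato+ to Tfh Tomato-, had no overlap between neighbours.

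In edgeR's quasi-likelihood test with Benjamini-Hochberg adjustment over all genes, Selplg was higher by 0.36 ± 0.08 on the log2 scale (± SE) in ZsGreen+ spleen cells, adjusted p = 0.00797. In the lymph node it was higher in Tomato+ than in Tomato- cells by 1.505 ± 0.151 among Tfh cells (edgeR adjusted p = 0.0127) and by 1.14 ± 0.15 among non-Tfh cells (edgeR adjusted p = 0.0312). It was the 1 gene of the 9 to pass in each, where 0.111% of 11746 genes passed among Tfh and 0.332% among non-Tfh cells. Both lymph node calls were lost whenever 1 of the 4 compared libraries was left out (adjusted p 0.0537 to 0.0704 among Tfh and 0.0691 to 0.209 among non-Tfh cells), though the log2 difference among Tfh cells stayed within 1.42 to 1.58 over all alternatives. Averaged over Tfh and non-Tfh cells the difference was 1.32 ± 0.11 (edgeR adjusted p = 0.00164, in a comparison where 0.656% of genes passed), and that call was kept in all 17 alternatives, including the 8 that left out 1 library. The Tomato difference of Selplg in Tfh minus that in non-Tfh cells was 0.37 ± 0.21 (edgeR adjusted p = 0.870).

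Selplg was also lower in Tfh than in non-Tfh cells, whichever Tomato group was taken. The log2 difference was -1.27 ± 0.15 in Tomato+ cells (edgeR adjusted p = 0.0393) and -1.64 ± 0.15 in Tomato- cells (edgeR adjusted p = 0.0198). Tfh Tomato+ and non-Tfh Tomato- cells, at 212 and 220.5 against 230.3 and 223 RPKM, were the closest lymph node groups for this gene, 1 carrying the T-bet mark and the other not. Leaving out each compared library in turn kept the Tomato- call 4 times and the Tomato+ call 0 times (adjusted p 0.128 to 0.315). The averaged difference of -1.45 ± 0.11 (edgeR adjusted p = 0.00237) was kept in all 17 alternatives.

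The T-bet comparison in the spleen divided the integrins into a group that was higher and a group that was lower in ZsGreen+ cells. Of the 9 genes 8 passed, 3 higher (Selplg, Itgb2 and Itgal) and 5 lower (Itgb7, Itgb1, Itga4, Itgae and Itgav), where 23.8% of the 12918 genes tested passed, 11.4% higher and 12.4% lower. The median log2 difference of the 9 was -0.42, and that of all genes tested 0.00. Cd44, at 61.2 and 58.4 RPKM in ZsGreen+ and 51.1 and 52.8 RPKM in ZsGreen- cells, did not pass (0.16 ± 0.08, edgeR adjusted p = 0.162).

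Both chains of LFA-1 were higher in ZsGreen+ spleen cells. Itgb2 had 401 and 442 RPKM in ZsGreen+ cells, against 271 and 271 RPKM in ZsGreen- cells. Itgal had 184 and 211 RPKM in ZsGreen+ cells, against 127 and 126 RPKM in ZsGreen- cells. In neither gene did the groups overlap, and the log2 differences were alike at 0.60 ± 0.08 for Itgb2 (edgeR adjusted p = 0.000386) and 0.61 ± 0.08 for Itgal (edgeR adjusted p = 0.000544). The ratio of Itgb2 to Itgal RPKM was 2.176 and 2.093 in ZsGreen+ cells and 2.136 and 2.147 in ZsGreen- cells, ranges that overlapped.

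Itgb7, Itgb1, Itga4, Itgae and Itgav were lower in ZsGreen+ spleen cells. Itgb7 had 342 and 334 RPKM in ZsGreen+ cells, against 505 and 473 RPKM in ZsGreen- cells (log2 difference -0.57 ± 0.07, edgeR adjusted p = 0.000432). Itga4 had 17.7 and 14.5 RPKM in ZsGreen+ cells, against 24.2 and 25.9 RPKM in ZsGreen- cells (-0.67 ± 0.11, edgeR adjusted p = 0.00146). Both genes encode chains of the gut-homing integrin, and neither showed overlap between the groups.

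Itgae showed the widest gap of the 9 genes in the spleen. It had 1.56 and 1.31 RPKM in ZsGreen+ cells (208 and 138 reads), against 6.65 and 5.95 RPKM in ZsGreen- cells (762 and 731 reads), and the log2 difference was -2.16 ± 0.14 (edgeR adjusted p = 4.64e-06). Itgb7, which encodes the beta chain that pairs with alphaE, was lower too, but by less. Itgav had 3.62 and 3.59 RPKM in ZsGreen+ cells, against 5.37 and 5.64 RPKM in ZsGreen- cells (-0.65 ± 0.09, edgeR adjusted p = 0.000708).

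Itgb1, the beta chain shared by VLA-4 and several collagen and laminin receptors, had 207 and 171 RPKM in ZsGreen+ cells, against 255 and 238 RPKM in ZsGreen- cells. The groups did not overlap, and the log2 difference of -0.42 ± 0.10 passed (edgeR adjusted p = 0.0138). That call was lost without ZsGreen+ replicate 2 (adjusted p = 0.0571), the lower of the ZsGreen+ pair; no other spleen call was lost under any alternative. Among the 3 beta transcripts summed, Itgb2 made up 42.2% and 46.7% in ZsGreen+ cells, against 26.3% and 27.6% in ZsGreen- cells, while Itgb7 made up 36.0% and 35.3% in ZsGreen+ cells, against 49.0% and 48.2% in ZsGreen- cells.

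Markers of other cells moved with these spleen differences. All 12 NK and innate-like T cell markers were higher in ZsGreen+ cells, where they summed to 156 to 168 RPKM, against 16.8 to 18.5 RPKM in ZsGreen- cells, and none was at 0 in either group. Neutrophil markers summed to 1170.0 and 1230.5 RPKM in ZsGreen+ cells, against 786 and 1061 RPKM in ZsGreen- cells, with none of 12 at 0. Dendritic cell markers summed to 11.6 to 13.6 RPKM in ZsGreen+ cells, against 7.15 to 7.80 RPKM in ZsGreen- cells. Of the 13 CD4 T cell markers 8 were lower in ZsGreen+ cells. A list of 5 regulatory T cell markers, added after the data were seen, summed to 25.1 and 29.0 RPKM in ZsGreen+ cells, against 64.7 and 68.1 RPKM in ZsGreen- cells, with Foxp3 at 5.50 and 5.13 RPKM in ZsGreen+ cells, against 32.5 and 36.1 RPKM in ZsGreen- cells. The sort took CD4+, CD44high and CD25- cells, a gate meant to leave out NK cells, neutrophils and those regulatory T cells that carry CD25. NK cells and neutrophils also use LFA-1, and regulatory T cells are known to express CD103; the part of such cells in the differences of Itgb2, Itgal and Itgae was not tested.

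**Figure D2:**
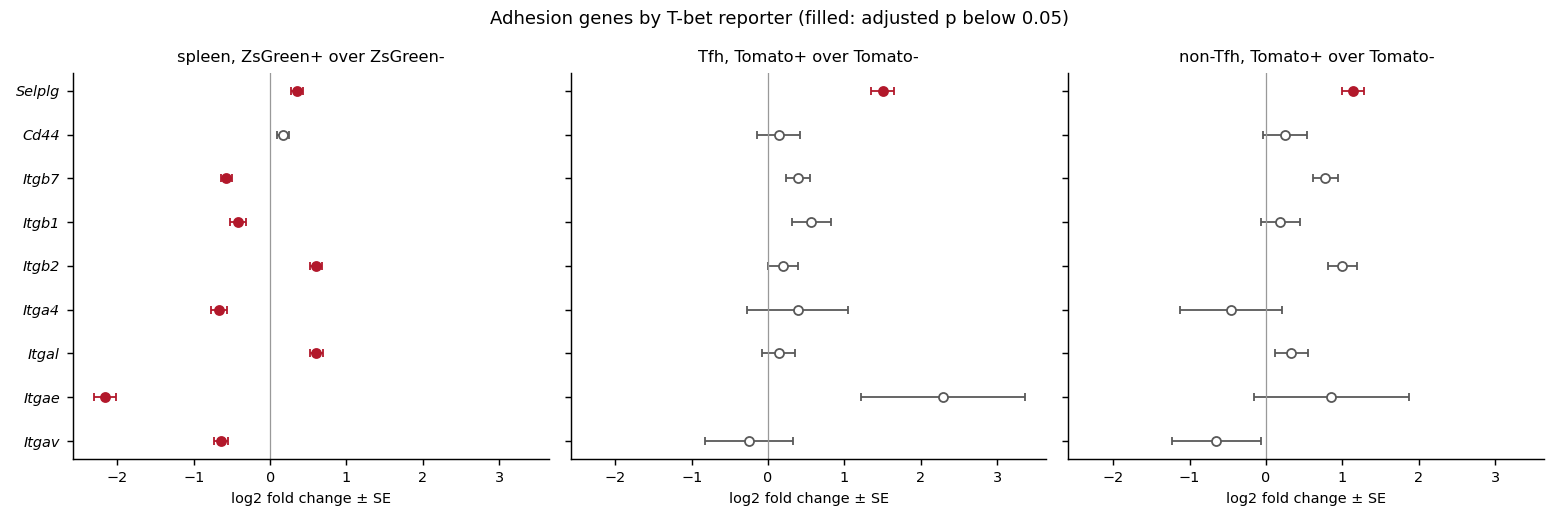
Log2 fold change with its standard error for the 9 genes by T-bet reporter: ZsGreen+ over ZsGreen- in the spleen (2 libraries each), Tomato+ over Tomato- in Tfh and in non-Tfh cells (2 libraries each); filled red points have an adjusted p below 0.05. Selplg is filled in all 3 panels (0.36, 1.505 and 1.14), Itgb7 lies at -0.57 in the spleen and at 0.39 and 0.78 in the lymph node, where it is not filled.

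In the lymph node no integrin gene of the 9 passed edgeR's test between Tomato+ and Tomato- cells. The libraries of several genes did not overlap, which with 2 libraries a group is weak evidence of a difference. The share of all genes without such overlap was not counted, here or in the other comparisons. At an unadjusted p below 0.05, 2 of the 9 stood out among Tfh cells (Selplg and Itgb7) and 3 among non-Tfh cells (Selplg, Itgb2 and Itgb7), where 5.83% and 8.94% of all genes did. DESeq2 called 1 of the 9 among Tfh cells, beside 2.23% of all genes, and 3 among non-Tfh cells, beside 4.72%. Itgb2 in non-Tfh cells had 380.2 and 375 RPKM in Tomato+ libraries, against 192 and 193 RPKM in Tomato- libraries (log2 difference 1.002 ± 0.195, edgeR adjusted p = 0.116). Itgb7 in non-Tfh cells had 599 and 533 RPKM in Tomato+ libraries, against 374 and 299 RPKM in Tomato- libraries (0.78 ± 0.16, edgeR adjusted p = 0.144). Neither showed overlap between the groups, and both passed with DESeq2 (adjusted p = 2.55e-05 for Itgb2 and 0.000212 for Itgb7) and with none of the other 13 alternatives.

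In Tfh cells the same genes stood closer together. Itgb7 had 229 and 211 RPKM in Tomato+ libraries, against 157 and 175 RPKM in Tomato- libraries (0.39 ± 0.16, edgeR adjusted p = 0.833). Itgb2 overlapped, with 368 and 332 RPKM in Tomato+ libraries, against 356 and 249 RPKM in Tomato- libraries (0.19 ± 0.19, edgeR adjusted p = 1). The difference of Itgb2 between the Tomato effects in Tfh and in non-Tfh cells was -0.81 ± 0.27 and did not pass (edgeR adjusted p = 0.774). None of the 11746 genes passed that interaction test in edgeR, 0%, with 746 (6.35%) at an unadjusted p below 0.05; limma-trend passed 0 as well and DESeq2 143 (1.22%), none of them among the 9.

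Itgal lay within 87.8 to 179 RPKM in all 8 lymph node libraries. Its Tomato difference was 0.14 ± 0.22 in Tfh cells (edgeR adjusted p = 1) and 0.33 ± 0.22 in non-Tfh cells (edgeR adjusted p = 0.689). Itgb1 differed by 0.57 ± 0.26 in Tfh cells and 0.19 ± 0.25 in non-Tfh cells (edgeR adjusted p = 0.833 and 0.924). Itgae differed by 2.29 ± 1.07 in Tfh cells and 0.86 ± 1.02 in non-Tfh cells (edgeR adjusted p = 0.833 and 0.904). Neither passed, and both had the sign opposite to its spleen difference of -2.16. Cd44 spread most within a group among non-Tfh Tomato- cells, at 35.1 and 64.0 RPKM. Itga4 and Itgav, with 415 to 1553 and 532 to 1029 reads per library, overlapped between the Tomato groups of Tfh cells. Their differences there had standard errors of 0.66 and 0.58 on the log2 scale, so small differences were not detectable at this spread. Among non-Tfh cells Itgav had 3.33 and 3.04 RPKM in Tomato+ libraries, against 3.69 and 6.44 RPKM in Tomato- libraries. These did not overlap, and the difference did not pass (-0.65 ± 0.58, edgeR adjusted p = 0.829).

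Macrophage and monocyte markers and NK markers moved with Tomato in the lymph node. The 15 macrophage and monocyte markers summed to 242 to 634 RPKM in Tomato+ libraries, against 1162 to 1729 RPKM in Tomato- libraries, with Marco at 0 in both libraries of Tfh Tomato+, non-Tfh Tomato+ and non-Tfh Tomato- cells and Ms4a7 in both of Tfh Tomato- cells. The 12 NK and innate-like markers summed to 108 to 207 RPKM in Tomato+ libraries, against 15.8 to 26.1 RPKM in Tomato- libraries. Of these, Zbtb16 was at 0 in both Tfh Tomato+ libraries and Klra8 in both non-Tfh Tomato+ libraries, against 4 and 5 at 0 in both libraries of Tfh Tomato- and of non-Tfh Tomato- cells. The sort took cells that bound the AS15 tetramer, a gate meant to leave out myeloid and NK cells, which also express Selplg and Itgb2; the part of such RNA in the Tomato differences was not tested. Dendritic cell markers summed to 2.90 to 7.81 RPKM in Tomato+ libraries, against 9.99 to 43.9 RPKM in Tomato- libraries. Of the 7 tested, 2 log2 differences were above 0 in Tfh and 3 in non-Tfh cells. Plasma cell markers summed to 248 to 411 RPKM in Tomato+ libraries, against 146 to 230 RPKM in Tomato- libraries. All 4 tested were above 0 in both populations. The part of these cells was not tested. Neutrophil markers stood at 454 RPKM in Tfh Tomato- replicate 2 and 366 RPKM in non-Tfh Tomato- replicate 2, against 1.36 to 101 RPKM in the other 6 lymph node libraries. Without both of those Tomato- libraries the averaged Selplg difference was still called, and neither Selplg call between Tomato+ and Tomato- cells of 1 population was (adjusted p = 0.164 in Tfh and 0.204 in non-Tfh cells).

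Tfh cells carried less transcript of the beta7 chain than non-Tfh cells. In Tomato+ cells Itgb7 had 229 and 211 RPKM in Tfh libraries, against 599 and 533 RPKM in non-Tfh libraries. In Tomato- cells it had 157 and 175 RPKM in Tfh libraries, against 374 and 299 RPKM in non-Tfh libraries. No library of 1 population reached the other in either Tomato group.

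The log2 difference of Itgb7 was -1.45 ± 0.17 in Tomato+ cells (edgeR adjusted p = 0.0367), where 0.0766% of genes passed, and Itgb7 and Selplg were 2 of the 9 genes called there. This call was lost in each of the 4 fits that left out a library (adjusted p 0.123 to 0.221). In Tomato- cells, where 0.179% of genes and Selplg alone of the 9 passed, the difference was -1.06 ± 0.16 (edgeR adjusted p = 0.0667). Averaged over both Tomato groups it was -1.26 ± 0.12 (edgeR adjusted p = 0.00376), where 1.07% of genes and 2 of the 9 passed, and that call was kept in all 17 alternatives. DESeq2 called 3 of the 9 in Tomato+ cells, 5 in Tomato- cells and 4 in the average, beside 3.49%, 4.59% and 6.17% of all genes.

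Markers of other cells differed between the populations too. In Tomato+ cells the 12 NK and innate-like markers summed to 108 and 120.3 RPKM in Tfh libraries, against 207 and 194 RPKM in non-Tfh libraries. The sum does not stand for the whole list: 7 of the 11 tested markers had a log2 difference above 0, with a median of 0.23. The 15 macrophage and monocyte markers summed to 634 and 482 RPKM in Tfh libraries, against 301 and 242 RPKM in non-Tfh libraries, with 12 of 15 log2 differences above 0. Neither sum overlapped, and no single marker of either list passed edgeR's test, with 1 of 11 and 4 of 15 tested at an unadjusted p below 0.05. In Tomato- cells the NK markers summed to 24.4 and 15.8 RPKM in Tfh libraries, against 26.1 and 19.8 RPKM in non-Tfh libraries, and the macrophage and monocyte markers to 1162 and 1382 RPKM in Tfh libraries, against 1622 and 1729 RPKM in non-Tfh libraries; the NK sums overlapped and the others did not. The part of such RNA in the Selplg and Itgb7 differences was not tested.

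Itgae, the epithelial-retention alpha chain, was found mainly in the non-Tfh cells of the lymph node. It had 0.874 and 2.90 RPKM in Tfh Tomato+ libraries (91 and 260 reads), against 15.0 and 16.7 RPKM in non-Tfh Tomato+ libraries (1335 and 1722 reads). It had 0.0714 and 0.690 RPKM in Tfh Tomato- libraries (8 and 68 reads), against 6.00 and 11.8 RPKM in non-Tfh Tomato- libraries (559 and 859 reads). All 4 Tfh libraries lay below all 4 non-Tfh libraries, and the libraries of the Tfh Tomato- group differed 9.67-fold. That spread depends on the transcript row kept, which has 3836 bases. The other Itgae row, of 3813 bases, held 8 and 12 reads in these libraries (0.0718 and 0.123 RPKM).

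The averaged log2 difference of Itgae was -3.89 ± 0.80 and missed the threshold (edgeR adjusted p = 0.0805). It passed in 5 of the 17 alternatives: DESeq2, limma-trend on log2(RPKM + 1), no filter, the replicate block and the fit without Tfh Tomato- replicate 2. The ratio of Itgae to Itga4 RPKM, the alpha chains that share beta7, was 0.254 and 1.23 in Tfh Tomato+ cells and 0.0426 and 0.252 in Tfh Tomato- cells, against 8.25 and 2.84 in non-Tfh Tomato+ and 0.924 and 2.66 in non-Tfh Tomato- cells. In the spleen it was 0.0877 and 0.0904 in ZsGreen+ cells, against 0.275 and 0.230 in ZsGreen- cells. In the lymph node the ranges of this ratio in Tfh and non-Tfh libraries overlapped. Foxp3 had 7.18 and 1.35 RPKM in Tfh Tomato+ and 1.53 and 1.88 RPKM in Tfh Tomato- cells, against 22.3 and 23.1 RPKM in non-Tfh Tomato+ and 15.7 and 10.01 RPKM in non-Tfh Tomato- cells; the part of regulatory T cells in the Itgae difference was not tested.

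Itgb1 pointed the same way with less support. It had 145 and 95.7 RPKM in Tfh Tomato+ cells, against 192 and 167 RPKM in non-Tfh Tomato+ cells, and 69.0 and 92.7 RPKM in Tfh Tomato- cells, against 142 and 178 RPKM in non-Tfh Tomato- cells. The averaged difference of -0.85 ± 0.18 did not pass (edgeR adjusted p = 0.0893). Tfh and non-Tfh libraries did not overlap in either Tomato group, and the share of all genes that separate in this way was not counted. The ratio of Itgb7 to Itgb1 was 1.58 to 2.28 in the 4 Tfh libraries, against 1.68 to 3.20 in the 4 non-Tfh libraries, and these ranges overlapped.

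Neither chain of LFA-1 passed edgeR's test between Tfh and non-Tfh cells. The averaged difference between Tfh and non-Tfh cells was 0.20 ± 0.14 for Itgb2 (edgeR adjusted p = 0.639) and 0.33 ± 0.15 for Itgal (edgeR adjusted p = 0.447). The average for Itgb2 joins differences of opposite sign. In Tomato+ cells it had 368 and 332 RPKM in Tfh libraries, against 380.2 and 375 RPKM in non-Tfh libraries, without overlap (-0.20 ± 0.19, edgeR adjusted p = 0.924). In Tomato- cells it had 356 and 249 RPKM in Tfh libraries, against 192 and 193 RPKM in non-Tfh libraries (0.60 ± 0.19, edgeR adjusted p = 0.401; DESeq2 adjusted p = 0.0390). Itgb2 made up 48.1% to 61.1% of the 3 beta transcripts in Tfh libraries, against 27.1% to 34.9% in non-Tfh libraries. That total includes Itgb7, called lower in Tfh cells, and Itgb1, lower but not called. The share therefore restates those differences and is not a separate result on Itgb2. Cd44 differed by -0.05 ± 0.20 (edgeR adjusted p = 0.988), Itgav by 0.08 ± 0.41 (edgeR adjusted p = 0.994) and Itga4 by -0.93 ± 0.47 (edgeR adjusted p = 0.483).

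**Figure D3:**
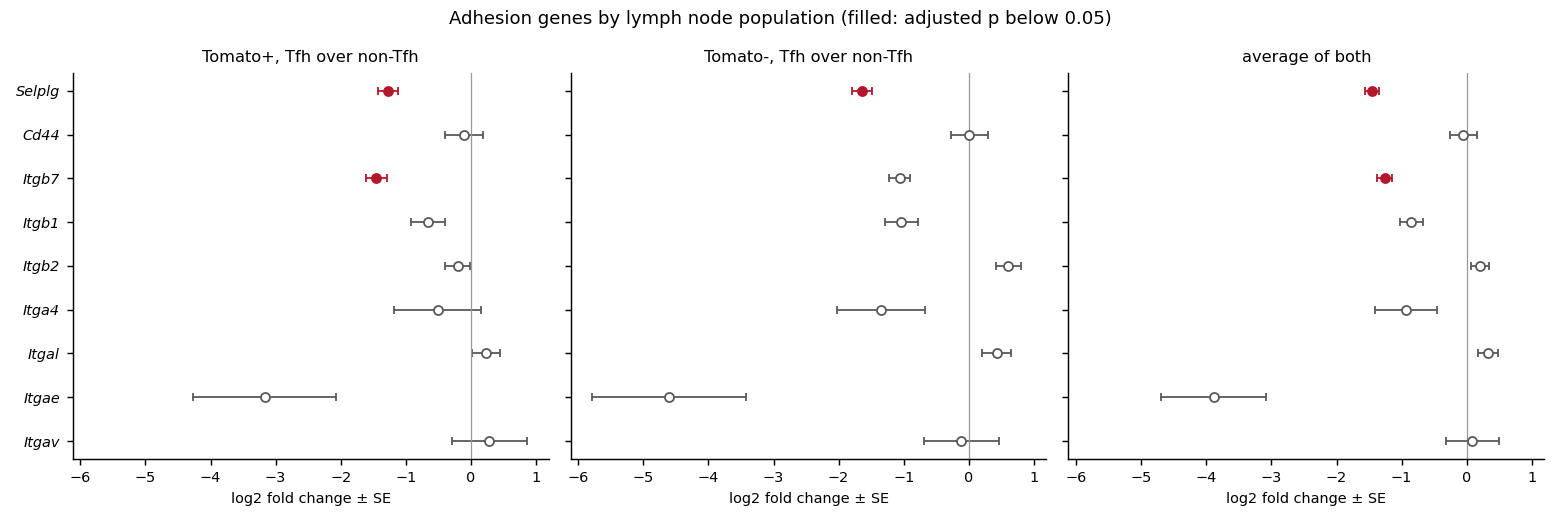
Log2 fold change with its standard error for the 9 genes in Tfh over non-Tfh cells, in Tomato+ cells, in Tomato- cells (2 libraries per group) and averaged over both; filled red points have an adjusted p below 0.05. Selplg is filled in every panel, Itgb7 in the first and the last, and Itgae lies farthest from 0 with the widest error.

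**Figure D4:**
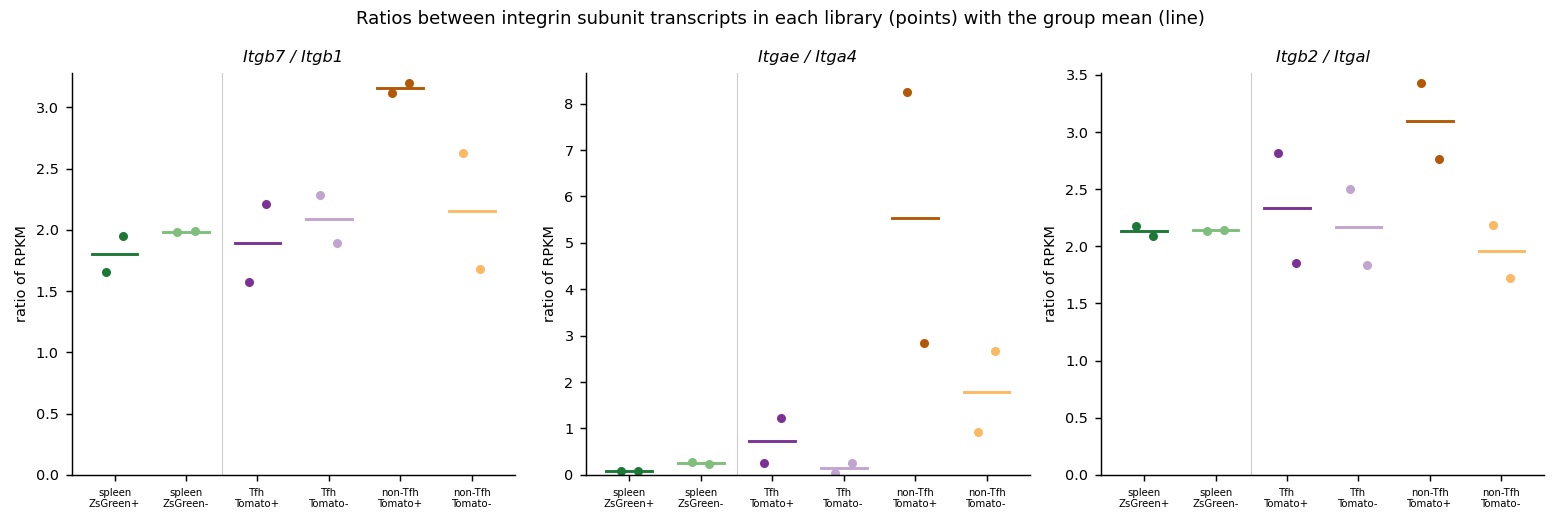
Ratio of RPKM between subunit transcripts that share a partner or pair with each other, in each of the 12 libraries (points) with the group mean (line). Itgb2 over Itgal stays near 2.1 in all 4 spleen libraries. Itgae over Itga4 overlaps between Tfh and non-Tfh cells, with 1.23 in Tfh Tomato+ replicate 2 and 0.924 in non-Tfh Tomato- replicate 1.

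Cd44 is spliced into a standard form and into longer forms with variable exons, and the tables hold 6 transcript rows for it. The longest row (NM_009851) has 1245 more bases than the shortest (NM_001039151). It held 77 to 135 more reads in the spleen libraries and 103 to 327 more in the lymph node libraries. Per base, this extra stretch had 3.29% and 3.95% of the read density of the shortest row in ZsGreen+ cells, against 3.19% and 5.06% in ZsGreen- cells. In the lymph node it had 8.83% and 13.8% in Tfh Tomato+ cells and 11.6% and 14.7% in Tfh Tomato- cells, against 11.3% and 11.5% in non-Tfh Tomato+ cells and 9.41% and 5.39% in non-Tfh Tomato- cells. Most Cd44 reads therefore lay in the stretch that both rows share in every library. All cells of the spleen groups were gated as CD44high, so the protein was part of their selection.

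**Figure D5:**
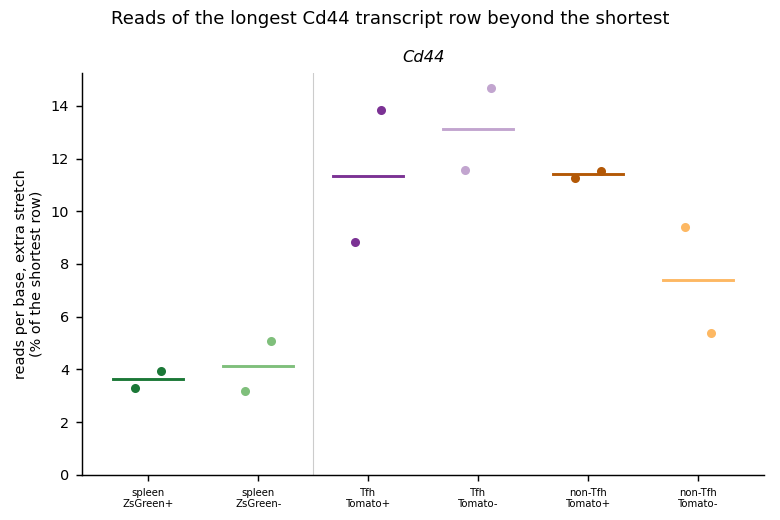
Reads per base in the stretch that the longest Cd44 transcript row has beyond the shortest, as a percentage of the reads per base of the shortest row, in each library (points) with the group mean (line). The 4 spleen libraries lie between 3.19% and 5.06%, and the 8 lymph node libraries between 5.39% and 14.7%.

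The genes around these receptors were counted in 7 further lists: other integrin subunits, selectins and other selectin ligands, enzymes that build selectin ligands, integrin activators and adaptors, integrin ligands of the immunoglobulin and cadherin families, matrix ligands, and linkers to the cortex. In the spleen 42 of their 98 tested genes passed, 18 higher and 24 lower, which is 42.9% beside the 23.8% of all genes. Of the 16 other integrin subunits 6 were higher and 4 lower in ZsGreen+ cells. Itgb3 had 28.0 ± 0.27 RPKM in ZsGreen+ cells and 10.4 ± 0.42 RPKM in ZsGreen- cells (SD, n = 2 each; log2 difference 1.38 ± 0.07 with SE, edgeR adjusted p = 1.58e-06), and its product is a partner of alphaV, whose transcript was lower. Itga1, a collagen-binding partner of beta1, was higher by 2.55 ± 0.22, and Itga7, a laminin-binding one, was lower by -2.34 ± 0.17 on the log2 scale (edgeR adjusted p = 3.18e-05 and 8.91e-06).

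Among the 18 tested enzymes that build selectin ligands 4 were higher and 2 lower in ZsGreen+ spleen cells, with a median log2 difference of 0.20. The sialyltransferases moved apart: St3gal6 was higher by 1.96 ± 0.10 and St3gal4 by 1.08 ± 0.09, and St3gal1 was lower by -1.22 ± 0.10 (edgeR adjusted p = 1.15e-06, 2.06e-05 and 1.75e-05). Among the tested sialomucins, Spn (CD43) was lower by -0.53 ± 0.07 and Cd164 was higher by 0.37 ± 0.08 (edgeR adjusted p = 0.000558 and 0.0106).

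Of the 32 integrin activators and adaptors 3 were higher and 10 lower in ZsGreen+ spleen cells, with a median of 0.01. The 3 with the smallest adjusted p were lower: Flna (filamin A, which binds integrin tails) by -0.91 ± 0.08, Rasgrp2 (an exchange factor for Rap1) by -0.86 ± 0.09 and Stk4 (the kinase MST1) by -0.40 ± 0.07 (edgeR adjusted p = 3.44e-05, 8.23e-05 and 0.00301). Of 9 integrin ligands Icam1, which LFA-1 binds, was higher by 1.46 ± 0.09, and Pecam1 and Icam5 were lower by -0.69 ± 0.09 and -1.87 ± 0.39 (edgeR adjusted p = 4.03e-06, 0.000440 and 0.00712).

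The remaining spleen lists were small. Of 10 matrix and other ligands Lrrc32 (GARP, which presents latent TGF-beta to alphaV integrins on regulatory T cells) was lower by -2.95 ± 0.19, Mfge8 was lower by -0.74 ± 0.09 and Lrrc33 was higher by 0.34 ± 0.08 (edgeR adjusted p = 3.9e-06, 0.000378 and 0.0125); the call of Lrrc33 was lost without ZsGreen+ replicate 2 (adjusted p = 0.0777). Of 8 cortical linkers 2 were higher and 2 lower, among them Epb4.1 at 0.50 ± 0.08, Nf2 at -0.48 ± 0.08 and Msn (moesin, which binds the tails of CD44 and PSGL-1) at -0.31 ± 0.07 (edgeR adjusted p = 0.00138, 0.00227 and 0.0131).

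In the lymph node few genes of these lists passed. None of 87 tested passed in edgeR between Tomato+ and Tomato- cells of either population, with 12 at an unadjusted p below 0.05 in each; limma-trend passed 0 in each and DESeq2 4 in Tfh and 8 in non-Tfh cells. The shares over all genes were, as above, 5.83% and 8.94% at that unadjusted p and 2.23% and 4.72% with DESeq2. With limma-trend on log2(RPKM + 1) they were 0.263% and 0.645%. In the averaged Tomato comparison, where 0.656% of all genes passed, Itga1 alone of these lists did (edgeR adjusted p = 0.0402). Its levels were 0.900, 0.587, 7.59 and 2.62 RPKM in Tomato+ libraries, against 0.0229, 0.0195, 0.0275 and 0.0264 RPKM, 3 or 4 reads each, in Tomato- libraries. That call was lost in each of the 8 fits without 1 library (adjusted p up to 0.339) and in limma-trend, and DESeq2 passed 16 of the 87, beside 5.45% of all genes.

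Between Tfh and non-Tfh cells, averaged, 3 of the 87 passed, all lower in Tfh cells, among them Rasgrp2 by -2.28 ± 0.22 and Flna by -0.89 ± 0.15 (edgeR adjusted p = 0.00391 and 0.0394). Over all genes 1.07% passed there in edgeR. Limma-trend passed 2 genes of these lists and DESeq2 16, beside 1.21% of all genes with limma-trend on log2(RPKM + 1) and 6.17% with DESeq2. Rasgrp2 had 23.2 and 18.2 RPKM in Tfh Tomato+ and 9.35 and 7.74 RPKM in Tfh Tomato- cells, against 75.7 and 83.4 RPKM in non-Tfh Tomato+ and 51.2 and 43.7 RPKM in non-Tfh Tomato- cells. It also passed in Tomato- cells taken alone (-2.52 ± 0.31, edgeR adjusted p = 0.0269), where 0.179% of all genes did. The averaged call of Rasgrp2 was kept in all 8 fits without 1 library. The averaged call of Flna (adjusted p up to 0.136) and the call of Rasgrp2 in Tomato- cells (up to 0.121) were lost in each fit without 1 library. None of the 87 passed edgeR's test in Tomato+ cells, with 19 at an unadjusted p below 0.05, 0 in limma-trend and 10 in DESeq2. Of all genes there 8.19% had such a p, limma-trend on log2(RPKM + 1) called 0.263% and DESeq2 called 3.49%.

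The genes whose group means ran most like each member's were found among 7284 genes with a mean of at least 5 RPKM, as the root-mean-square difference of centred log2(RPKM + 1) means over the 6 groups. Nearest to Selplg were Pygo2 (0.23), Entpd1, which encodes the ectonucleotidase CD39 (0.24), and Ogfod2 (0.27). Nearest to Itgb7 were Nqo2 (0.11), Ssh3 (0.12) and the leukocyte actin-binding Lsp1 (0.16), the last at 322 to 929 RPKM. Nearest to Itgb1 were Slfn2 (0.11), Capn2 (0.14) and Cdk16 (0.14), and nearest to Itgb2 were Abhd16a (0.11), Chpf (0.11) and Dpm3 (0.12). Itga4 was followed by Kbtbd11 (0.23), Slfn5 (0.31) and Cmpk2 (0.34), and Itgae less closely by Prr7 (0.43), Hist1h1c (0.57) and Foxp3 (0.62), the transcription factor of regulatory T cells. Cd44, Itgal and Itgav spanned less than 1 on the log2 scale over the 6 group means and were not ranked. The ranking used group means only, and the 2 libraries behind them often disagreed. In Tfh Tomato+ cells Ssh3 had 1.15 and 9.35 RPKM and Prr7 0.0542 and 17.8 RPKM, against 508 and 507 RPKM for Lsp1 and 206 and 205 RPKM for Slfn2. Nqo2 had 15.2 and 4.13 RPKM in non-Tfh Tomato+ cells. A small difference of means therefore does not show that a gene follows the member.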

How the data were processed

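The 12 RNA tables, 1 library each, give read counts and RPKM for 29257 RefSeq transcript rows. The authors deposited whole-number counts and, beside them, their RPKM (reads per kilobase scaled to a library total). The headers of the 4 spleen tables exchange the names of counts and lengths, so counts were recognised as the values proportional to RPKM times length. CASAVA 2.18, Bowtie2, SICER 1.1, edgeR and build mm9 are named in the submitters' processing notes; their roles and the use of strand are not given in the sources. The 8 DNase libraries were not used here. For each symbol the row with most reads was kept (4019 symbols had more than 1 row). Paralogs and overlapping genes may share reads.

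Counts were tested with edgeR 4.0.16 in R 4.3.3 (TMM, filterByExpr, quasi-likelihood F test, Benjamini-Hochberg adjustment, threshold 0.05), the 4 spleen libraries alone and the 8 lymph node libraries together. The method was also run on simulated counts with larger changes than many given here. That run does not speak for the smaller differences. The error beside a log2 fold change is its size over the square root of F. Median log2 differences over all genes stayed within 0.1 of 0 in every fit that used all libraries. With a library left out they went as far as -0.203, in the interaction without non-Tfh Tomato- replicate 1. Alternatives were DESeq2 1.42.0, limma 3.58.1 (trend, on log2(RPKM + 1) or + 0.1), median-of-ratios factors, other filters, a replicate block, summed transcript rows, fewer libraries and leaving out each library. Totals of 13169783 to 24174592 reads limit precision through counting error, most for genes of few reads.

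Named genes were the 9 members, up to 3 called genes with the smallest adjusted p per list and comparison, and the 3 nearest in pattern that have a protein name, for members spanning at least 1 on the log2 scale. Tbx21 was given as a check. For 1 list gene covered by this rule, values are not reported here. A sequence was to be printed for members called in 1 direction in at least 2 comparisons and held by the promoter table. Itga4 was added after its matches were seen, and Foxp3 is also given per library on that footing. Members and lists were chosen with earlier results of these data known.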

Additional observations from a re-analysis of the deposited data

How the results depend on the processing

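All 1071 alternative log2 differences of the 9 genes kept the sign of their main value except 35, none of them a called value; 33 calls were lost and 18 gained, 11 of the gains with DESeq2. In the spleen 8 genes were called in every alternative that used all libraries, and 7 to 8 when 1 was left out. The spleen alternatives that used all libraries called 21.3% to 27.9% of all genes. In the lymph node DESeq2 called 3 members between Tomato+ and Tomato- non-Tfh cells, 5 between Tfh and non-Tfh Tomato- cells, and 3 and 4 in the averaged Tomato and Tfh comparisons, where it called 4.72%, 4.59%, 5.45% and 6.17% of all genes. With no filter 2 were called between Tfh and non-Tfh Tomato- cells, beside 0.387% of all genes, and 4 in the averaged Tfh comparison, beside 1.3%. With a filter of 5 RPKM 2 were called in that Tomato- comparison, beside 0.348%. With the replicate block, and likewise with summed transcript rows, 0 were called between Tomato+ and Tomato- non-Tfh cells and 0 between Tfh and non-Tfh Tomato+ cells. Of all genes 0.196% and 0.00851% were called in these comparisons with the block, and 0.0849% and 0% with summed rows. The fit of only the 4 compared libraries, and the fit without both Tomato- libraries numbered 2, each called 0 in all 4 pairwise lymph node comparisons. Each fit without 1 library called 0 in the pairwise comparisons other than that of Tfh with non-Tfh Tomato- cells (1), and 1 and 2 to 3 in the averaged Tomato and Tfh comparisons. The cause was not tested, and the last 3 kinds of fit hold fewer libraries. The fit of only the 4 compared libraries called 0% to 0.0283% of all genes, so its zeros do not set the members apart. Deviations of libraries with the same number correlated over genes at 0.0133 in the spleen and -0.00847 to 0.0147 in the lymph node. Such a correlation cannot show whether these libraries shared animals. Neutrophil markers, as given above, were high in both Tomato- libraries numbered 2. Over all genes, between Tfh and non-Tfh Tomato- cells, 21 were called in edgeR and 539 with DESeq2. Of 54 group levels, 4 moved by more than 1 SD with summed transcript rows, all of Cd44 (58.6 to 67.5 RPKM). With 2 libraries a group and a wide spread in the lymph node, small differences of Itga4, Itgae and Itgav were not detectable.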

Other observations

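Summed over the 3 beta and 4 alpha transcripts, beta RPKM exceeded alpha RPKM in all 12 libraries. The ratio was 4.58 and 4.11 in ZsGreen+ spleen cells, against 6.32 and 6.00 in ZsGreen- cells. Among lymph node cells it was 5.31 and 3.41 in Tfh Tomato+ and 3.93 and 3.58 in Tfh Tomato- cells, against 8.94 and 6.67 in non-Tfh Tomato+ and 6.81 and 4.99 in non-Tfh Tomato- cells. These sums cover only the 9 genes, were chosen after the values were seen and were not tested. Itga4 RPKM as a fraction of Itgb1 RPKM was 0.0859 and 0.0848 in ZsGreen+ cells, against 0.0951 and 0.109 in ZsGreen- cells, and lay between 0.00944 and 0.0457 in the 8 lymph node libraries.

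The CD39 gene Entpd1, second nearest to Selplg in pattern over the same group means and so not independent of that choice, had 11.6 and 13.2 RPKM in ZsGreen+ spleen cells, against 6.16 and 6.31 RPKM in ZsGreen- cells. Among lymph node cells Entpd1 had 6.28 and 0.989 RPKM in Tfh Tomato+ cells, against 0.0489 and 1.88 RPKM in Tfh Tomato- cells, and 11.2 and 11.5 RPKM in non-Tfh Tomato+ cells, against 4.35 and 4.98 RPKM in non-Tfh Tomato- cells. The Tfh groups overlapped for this gene and the other pairs did not.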
